A study of Mus musculus with 11 samples.

Results

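GABAergic interneuron genes were followed in RNA from the embryonic mouse cortex after deletion of Chd8, an autism-related chromatin remodelling enzyme. The set held 10 genes chosen by symbol, Gad1, Gad2, Slc32a1, Lhx6, Sp8, Sp9, Nkx2-1, Erbb4, Cxcr4 and Sst. Each of the 10 matched a single locus of the 24138 in the deposited table, and no locus was shared with another symbol. Cortices dissected at stage E14.5 gave 3 control libraries and 2 Chd8 conditional knockout (cKO) libraries. The cKO libraries were labelled Chd8 c/c with Emx1-cre. Control 1 was labelled Chd8 c/+ and controls 2 and 3 Chd8 c/c, with no Cre named, so deletion of Chd8 and presence of the recombinase cannot be told apart. The labels do not say whether a library came from 1 embryo or a pool, so p-values measure the spread between these libraries, which may be technical.

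Cortical interneurons release GABA, the main inhibitory transmitter of the adult brain. In the mouse they are born outside the cortex, in the medial and caudal ganglionic eminences and the preoptic area of the ventral telencephalon, and reach the cortex by tangential migration. Emx1-Cre is active in the dorsal progenitors that give rise to glutamatergic neurons, so cortical interneurons descend largely from progenitors in which this driver is not active. The same genes are also used in the ganglionic eminences themselves and, for several, in striatal, hypothalamic or other neurons, so their RNA in dissected cortex does not by itself mark interneurons.

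Chd8 checked the labels. The controls held 31.5, 30.02 and 31.8 FPKM (fragments scaled to transcript length and library size) and the cKO libraries 19.3 and 15.1. Both cKO libraries lay below every control, and their mean was 55.2% of the control mean. A protocol note on these samples mentions Eed as the deleted gene, whereas their titles and genotypes give Chd8. Summed FPKM ranged from 418191 to 484296 over the 5 libraries, and the 12672 loci averaging 1 FPKM or more were tested. Correlations between libraries across these loci ran from 0.880 to 0.933, and the lowest and the highest were each between controls.

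Interneuron genes had higher means in the cKO, with ratios of cKO to control mean from 1.07 for Slc32a1 to 2.00 for Sp8. All 10 had a positive log2 change, where 46.9% of tested loci did. In 7 of the 10 (Gad2, Lhx6, Sp8, Sp9, Erbb4, Cxcr4 and Sst) both cKO libraries exceeded every control, against 13.4% of tested loci. The median log2 change was 0.84, beside -0.02 over all tested loci, with changes taken on log2(FPKM + 1), a scale that shrinks the differences of weakly expressed genes. No member was called in limma at an adjusted p under 0.05, a threshold that 0.0158% of loci passed as higher and 0.0316% as lower. At an unadjusted p under 0.05, Sp8, Sp9, Cxcr4 and Sst were higher, or 4 of 10 where 3.08% of loci were, and no member was lower, where 4.37% of loci were. Marks of significance in the authors' deposited table covered 7 members, all higher in the cKO (Gad1, Gad2, Lhx6, Sp8, Sp9, Cxcr4 and Sst), beside 1.21% of the 13511 loci that the authors tested. In whole tissue, more cells that use a gene and more RNA of it per cell cannot be told apart.

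**Figure D1:**
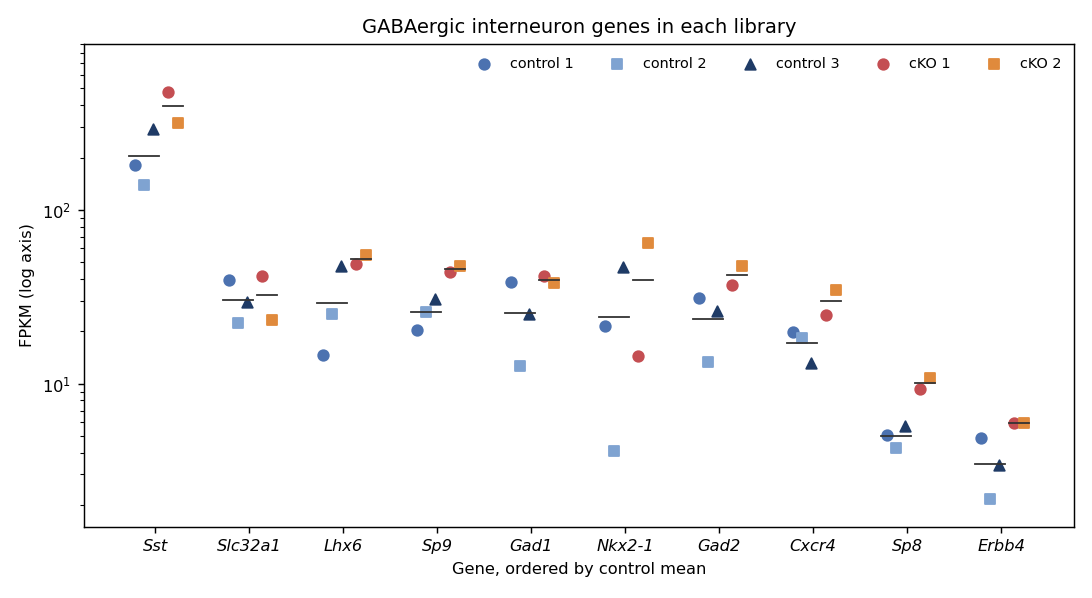
FPKM of the 10 genes (log axis) in 3 control and 2 cKO libraries, one point per library, with a short line at each group mean. Both cKO points lie above every control point for 7 genes, while Nkx2-1, Gad1 and Slc32a1 overlap.

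Of the genes that make and package GABA, the decarboxylases had higher cKO means and the vesicular transporter nearly equal ones. Gad1 encodes the glutamate decarboxylase that supplies most GABA of the cell body. Its level was 38.5, 12.7 and 25.2 FPKM in controls 1 to 3, against 41.3 and 37.8 in cKO 1 and 2. Control 1 lay above cKO 2, so the groups overlapped, and control 2 was the lowest library. The means were 39.5 ± 2.53 (SD, n = 2) in the cKO and 25.4 ± 12.9 (SD, n = 3) in the controls, a log2 change of 0.74 (SE 0.44, limma adjusted p = 0.581). Without control 2 the log2 change of Gad1 was 0.33. In the authors' deposited table Gad1 had a log2 fold change of 0.64 and a q-value of 0.0165.

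Gad2 encodes the other glutamate decarboxylase, which sits at synaptic vesicles. The controls held 31.3, 13.2 and 26.3 FPKM of it, in order of replicate, and the cKO libraries 36.9 and 47.4. Both cKO libraries were above every control, by at least 5.65 FPKM, and control 2 was again the lowest. The log2 change was 0.88 (SE 0.37, 95% interval -0.05 to 1.82, limma adjusted p = 0.575), and 0.53 without control 2.

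Slc32a1 encodes the vesicular GABA transporter. It was 39.7, 22.2 and 29.4 FPKM in controls 1 to 3, against 41.5 and 23.4 in cKO 1 and 2. One cKO library stood at the top of the control range and the other near its bottom. The log2 change was 0.07 (SE 0.33), and its interval of -0.76 to 0.91 includes changes as large as those of the decarboxylases. Its sign turned with the libraries used, at -0.13 without control 2 and -0.33 without cKO 1. Per FPKM of Gad2, Slc32a1 stood at 1.27, 1.68 and 1.12 in controls 1 to 3 and at 1.12 and 0.493 in cKO 1 and 2. This ratio differed by -0.84 on the log2 scale (exact two-sided permutation p = 0.2, adjusted p = 0.6 over the 6 pairs of genes compared, where 0.1 is the smallest p that 3 against 2 libraries allow). Slc32a1 per Gad1 was 1.00 and 0.619 in the cKO, below every control (1.03, 1.75 and 1.17), with the same p and a difference of -0.70.

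The transcription factors fell into genes that were steady among controls, Sp8 and Sp9, and genes that were not, Lhx6 and Nkx2-1. Sp8 and Sp9 encode related zinc finger factors of interneuron precursors, and both are also used in other progenitors of the telencephalon. Sp8 was 5.05, 4.28 and 5.71 FPKM in controls 1 to 3, against 9.35 and 10.7 in cKO 1 and 2. The lowest cKO value was 3.64 FPKM above the highest control, while the controls differed among themselves by no more than 1.33-fold. The means were 10.04 ± 0.983 (SD, n = 2) against 5.01 ± 0.715 (SD, n = 3), with a log2 change of 0.88 (SE 0.16, unadjusted p = 0.00215, limma adjusted p = 0.575).

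Sp9 reached 43.9 and 47.6 FPKM in cKO 1 and 2, against 20.5, 25.8 and 30.7 in controls 1 to 3. Here too the groups were apart, with a gap of 13.2 FPKM. The means were 45.8 ± 2.62 against 25.7 ± 5.13, a ratio of 1.78 and a log2 change of 0.83 (SE 0.19, limma adjusted p = 0.575). For Sp8 and Sp9 the change was 0.68 or more whichever library was left out. Sp8 stood at 0.247, 0.166 and 0.186 of the Sp9 level in the controls and at 0.213 and 0.225 in the cKO pair, so the ratio of the 2 genes overlapped between groups (exact permutation p = 0.5, adjusted p = 0.9).

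The sequences before the starts of Sp8 and Sp9 are shown because these paralogous genes had the smallest unadjusted p of the members and were higher together. In the RefSeq promoter table (build GRCm38.p6, also known as mm10) the longest run of bases shared by a 250-base window upstream of Sp8 and that of Sp9 was 15 bases, written in capitals, both on the + strand. The Sp8 stretch is at chr12:118847168-118847197, with the run beginning 58 bases before the second of 3 listed Sp8 starts. The Sp9 stretch is at chr2:73271889-73271918, with the run beginning 30 bases before its start.
Sp8: cgcctccGCGGCACTTCAAAGCcggagagg
Sp9: gcagccaGCGGCACTTCAAAGCgggtgctc
Of 32851 upstream windows of this length, 2 held the run on either strand, those of Sp8 and Sp9. These 2 hold it by construction, since the run was chosen from them, so the count tests nothing about a shared element. The full Sp9 window (chr2:73271676-73271925, + strand) follows, with the shared run and 2 matches to CCAAT (here on the opposite strand, ATTGG) in capitals.
Sp9 upstream: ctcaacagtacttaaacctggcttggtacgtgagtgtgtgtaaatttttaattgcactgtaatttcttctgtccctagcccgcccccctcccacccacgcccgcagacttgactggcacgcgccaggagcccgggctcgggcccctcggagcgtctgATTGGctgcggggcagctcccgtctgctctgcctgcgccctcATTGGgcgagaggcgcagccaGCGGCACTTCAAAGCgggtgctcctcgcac
CCAAT on either strand was in 6 of the 14 upstream windows of the 10 genes, belonging to 4 genes (Gad2, Lhx6, Sp8 and Sp9), and in 33.8% of all windows. The homeodomain core TAATTA, a palindrome, was in 1 member window, of Sp8, and in 4.84% of all windows. The GC box GGGCGG was in 7 of the 14 windows on either strand and in 32.7% of all. A match describes the letters and is no measurement of binding.

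Lhx6 encodes a LIM homeodomain factor of interneurons from the medial ganglionic eminence, kept on during migration. The controls held 14.7, 25.1 and 47.3 FPKM and the cKO libraries 48.8 and 55.1. The groups did not overlap, but control 3 came within 1.49 FPKM of cKO 1, and the controls spanned 3.23-fold among themselves. The log2 change was 0.97 (SE 0.46, limma adjusted p = 0.575), and 0.57 without control 1, the lowest library.

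Nkx2-1 encodes the homeodomain factor that specifies the medial ganglionic eminence and is also used in the hypothalamus. It is turned off in interneurons on their way to the cortex and kept in those that stay in the striatum. It was 21.3, 4.12 and 46.7 FPKM in controls 1 to 3, against 14.4 and 64.5 in cKO 1 and 2. The controls spanned 11.3-fold and the cKO pair 4.46-fold, the widest range of any member within each group. The log2 change was 0.85 (SE 1.07, 95% interval -1.84 to 3.54), and it turned to -0.04 without control 2 and -0.19 without cKO 2. Per FPKM of Lhx6, Nkx2-1 came to 1.45, 0.164 and 0.987 in the controls, in order of replicate, and to 0.296 and 1.17 in the cKO pair. So the libraries with little Nkx2-1, control 2 and cKO 1, still held Lhx6 at 25.1 and 48.8 FPKM.

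Lhx8 and Gbx1, factors of the medial ganglionic eminence and its derivatives, also differed widely between libraries. Lhx8 was 4.40, 0.105 and 14.04 FPKM in controls 1 to 3, against 6.74 and 22.5 in cKO 1 and 2. Gbx1 was 1.81 and 7.07 FPKM in controls 1 and 3, was listed at 0 in control 2, and was 3.93 and 5.31 in cKO 1 and 2. Control 2 was the lowest library for all 3 genes. For all 3 the libraries of 1 group differed from each other by more than the group means did, except Gbx1 within the cKO.

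**Figure D2:**
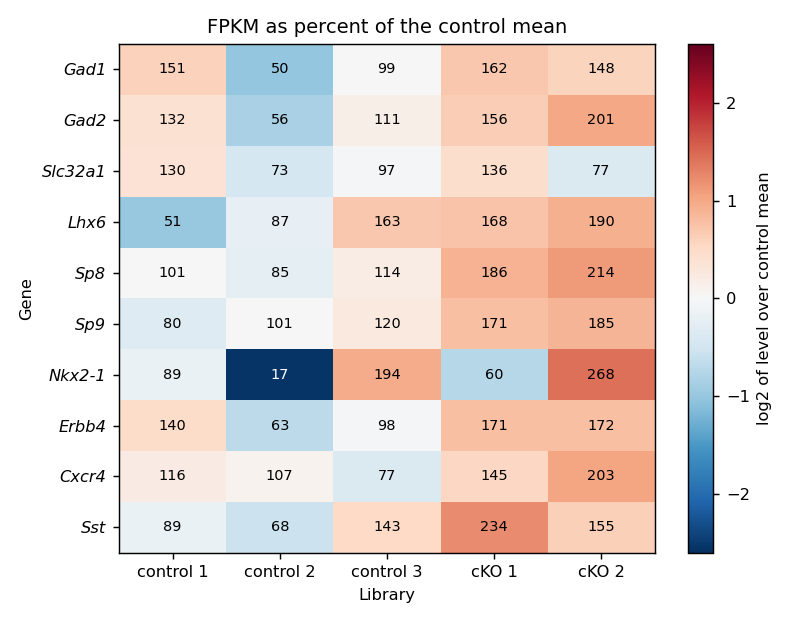
FPKM of each gene in each library as a percent of that gene's control mean (numbers), with the colour giving the log2 of the same ratio. Control 2 was the lowest library for 7 of 10 genes and cKO 2 the highest for 7 of 10.

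For both receptor genes of the set, Erbb4 and Cxcr4, the cKO libraries exceeded every control. Erbb4 encodes the receptor of neuregulins, which attract interneurons from the medial ganglionic eminence towards the cortex. It was 4.85, 2.18 and 3.39 FPKM in controls 1 to 3, against 5.94 and 5.97 in cKO 1 and 2. The cKO values were nearly equal and lay at least 1.10 FPKM above the controls, which spanned 2.23-fold. The log2 change was 0.68 (SE 0.28, limma adjusted p = 0.575), and 0.46 without control 2. In the authors' deposited table Erbb4 was not marked significant (q-value 0.0805).

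Cxcr4 encodes the receptor of the chemokine Cxcl12, which holds interneurons in their migratory streams. Its levels were 24.8 and 34.7 FPKM in cKO 1 and 2, against 19.8, 18.2 and 13.2 in controls 1 to 3. Both cKO libraries exceeded every control, and control 3 rather than control 2 was the lowest. The means were 29.8 ± 7.03 against 17.1 ± 3.44, with a log2 change of 0.77 (SE 0.23, unadjusted p = 0.0192, limma adjusted p = 0.575). Cxcr4 is also used by leukocytes, endothelial cells and Cajal-Retzius cells. The 12 genes of microglia and leukocytes summed to between 31.2 and 49.5 FPKM in the controls and to 103 and 98.8 in cKO 1 and 2. Of the 10 of them tested, 9 were above every control in both cKO libraries, where 13.4% of tested loci were. The exception, Cx3cr1, was 4.58 and 0.875 FPKM in cKO 1 and 2 against 1.90 to 2.51 in the controls. Ptprc and Itgam stayed under 1 FPKM in every library. The 10 endothelial and pericyte genes summed to between 82.4 and 97.2 FPKM in the controls and to 98.2 and 107 in the cKO. Of them, 2 were above every control in both cKO libraries, beside 13.4% of tested loci. Rgs5 had the largest difference of this list, at a mean of 23.4 FPKM in the cKO against 13.5 in the controls. The 9 Cajal-Retzius genes did not move one way. Reln, the secreted guidance protein of these cells, was 54.9 and 55.0 FPKM in the cKO against 24.8 to 28.9 in the controls (limma adjusted p = 0.339), and Trp73 and Ndnf were also above every control. Without control 1, 6 of the 9 genes were, beside 27.8% of tested loci. The summed level was 228, 61.4 and 72.8 FPKM in the controls, in order of replicate, and 118 and 99.3 in the cKO, and the high sum of control 1 rests largely on Ebf3, Lhx5 and Lhx1, at 75.5, 33.3 and 30.9 FPKM there. The part of these cells in the Cxcr4 difference was not tested.

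Ackr3, which encodes the scavenging receptor of the same chemokine, was 14.8, 19.3 and 20.3 FPKM in controls 1 to 3, against 29.3 and 49.7 in cKO 1 and 2. It was thus above every control in both cKO libraries, as Cxcr4 was (log2 change 1.05, SE 0.26, limma adjusted p = 0.575). Their ligand gene Cxcl12 was 5.67, 15.5 and 9.79 FPKM in controls 1 to 3, against 11.9 and 7.94 in cKO 1 and 2, with a log2 change of 0.02 (SE 0.41). The cKO values of Cxcl12 fell inside the control range. Over the 18 genes of migration cues and receptors listed beside the members, 14 were tested and none was called in limma. At an unadjusted p under 0.05 in limma, 2 were higher and 1 lower, beside 3.08% and 4.37% of tested loci. The authors' deposited table marked 3 of the 18 significant, each higher in the cKO, beside 1.21% of the loci that the authors tested. They were Ackr3 (q-value 0.0033), Sema3a (0.0137) and Met, a receptor tyrosine kinase (0.048) that was under the filter of 1 FPKM here. The higher pair was Ackr3 and Sema3a, a repellent ligand, at 9.01 ± 0.487 against 5.28 ± 0.902. The lower one was Nrp1, the binding receptor of Sema3a, at 12.9 and 13.6 FPKM in cKO 1 and 2 against 20.1, 26.1 and 20.5 in controls 1 to 3. The Nrp1 locus also carries a microRNA symbol, so its value cannot be assigned to Nrp1 alone. The median log2 change of the 14 was 0.06.

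Sst encodes somatostatin, the peptide that marks a large class of interneurons from the medial ganglionic eminence, and it had the highest level of the 10 genes in every library. It was 181, 139 and 293 FPKM in controls 1 to 3, against 478 and 316 in cKO 1 and 2. Both cKO libraries exceeded every control, with cKO 2 23.1 FPKM above control 3. The means were 397 ± 115 against 204 ± 79.4, a ratio of 1.94 and a log2 change of 0.99 (SE 0.37, unadjusted p = 0.0385, limma adjusted p = 0.575). Per FPKM of Lhx6, Sst came to 12.4, 5.52 and 6.18 in the controls and to 9.79 and 5.73 in the cKO pair. The cKO ratios lay inside the control range, with a mean log2 difference of -0.0018 (exact permutation p = 1). Sst is known for a cAMP response element before its start, and a stretch around it is shown for that reason (chr16:23890874-23890903, - strand, RefSeq GRCm38.p6). The capitals mark the palindrome TGACGTCA, which begins 48 bases before the start and is in 1.55% of all upstream windows.
Sst: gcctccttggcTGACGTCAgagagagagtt
No other member held it in these windows. Of the 10 genes, 5 lie on chromosome 2, and Gad1 (70561303 to 70602014) and Sp9 (73271926 to 73275771) are 2.67 Mb apart there.

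In the control libraries Sst, at a mean of 204 FPKM, stood apart from Slc32a1, Lhx6, Sp9, Gad1, Nkx2-1, Gad2 and Cxcr4, whose means ran from 30.4 down to 17.1. The SDs of those 7 genes between controls ran from 3.44 to 21.4 FPKM. Differences in level between genes were not tested, so their order is not established. Sp8 at 5.01 and Erbb4 at 3.47 FPKM were the lowest.

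**Figure D3:**
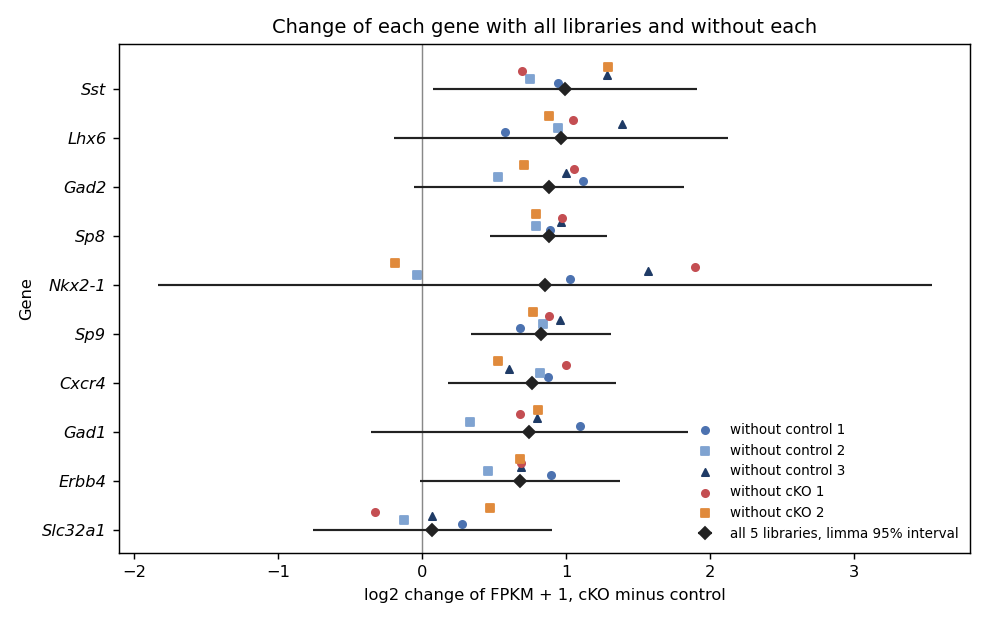
Change of each gene on the log2(FPKM + 1) scale, cKO minus control, with all 5 libraries (diamond, limma 95% interval) and with each library left out in turn (small points). Only Nkx2-1 and Slc32a1 have points on both sides of 0, and the intervals of Sp8, Sp9, Cxcr4 and Sst lie above 0.

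Other genes of the interneuron lineage were mostly higher too. Of 26 listed, 24 were tested, and 21 had a positive change, where 46.9% of tested loci did. In 14 both cKO libraries exceeded every control, beside 13.4% of tested loci, and 1 was below every control, beside 15.6%. In limma none was called over all loci. At an unadjusted p under 0.05 in limma, 7 were higher, where 3.08% of loci were, and none was lower, where 4.37% were. The median log2 change was 0.54. The authors' deposited table marked 6 significant and higher in the cKO (Dlx5, Dlx6os1, Maf, Calb1, Lhx8 and Etv1) and 1, Nos1, lower. Of the loci that the authors tested, 1.21% were marked higher and 3% lower. Dlx6os1, a noncoding transcript that runs antisense to Dlx6, was 50.5 ± 9.74 against 21.2 ± 4.85 FPKM, and Dlx5, a homeobox factor of postmitotic GABAergic neurons, was 76.5 ± 12.3 against 36.9 ± 11.05. How strand was treated in counting is not stated, so reads of Dlx6os1 and its overlapping neighbours cannot be told apart. Dlx2, which acts upstream in ventral progenitors, was 110.4 ± 9.26 against 57.7 ± 11.2. Npy, a peptide of interneurons that often also make somatostatin, was 83.8 and 76.5 FPKM in cKO 1 and 2 against 39.1, 34.7 and 54.7 in controls 1 to 3. Markers of later interneuron maturity were hardly present, with Vip at or under 0.0953 FPKM and Pvalb at or under 1.77 FPKM, and both listed at 0 in the cKO libraries.

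Of 9 further genes of GABA handling, 8 were tested, with a median log2 change of 0.24. In limma none was called, and none passed at an unadjusted p under 0.05, where 3.08% of loci were higher and 4.37% lower. The authors' deposited table marked 1 of the 9 significant and higher, beside 1.21% of the loci that the authors tested. Abat, the enzyme that degrades GABA, was 27.6 ± 3.32 FPKM in the cKO against 20.7 ± 8.23 in the controls. Without control 1 the genes of this list above every control went from 1 to 5, those of the migration list from 2 to 7 and those of the pan-neuronal list from 2 to 6, while the share of all tested loci went from 13.4% to 27.8%.

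Markers of other tissue varied between libraries as well, and the part of this variation in the interneuron results was not tested. The 15 dorsal genes, which mark cortical progenitors and glutamatergic neurons, were present in every library and summed to 742, 1654 and 1127 FPKM in controls 1 to 3 and to 944 and 634 in cKO 1 and 2. Control 2, lowest for most interneuron genes, was the highest in this sum. Of the 15, 7 were below every control in both cKO libraries and 1, Tbr1, was above, with a median log2 change of -0.63. Over all tested loci 15.6% were below. A negative log2 change was seen in 13 of the 15, where 6733 of the 12672 tested loci had one. At an unadjusted p under 0.05 in limma, 6 were lower, beside 4.37% of tested loci, and none was called after adjustment. The authors' deposited table marked 8 significant and lower, beside 3% of the loci that the authors tested. Without cKO 1 the dorsal genes below every control were 11, beside 34.7% of loci. The 18 striatal genes summed to 294, 208 and 257 FPKM in controls 1 to 3 and to 383 and 307 in cKO 1 and 2, and 7 were above every control, where 13.4% of tested loci were. This count was 13 without control 1 and 11 without cKO 2, beside 27.8% and 21.4% of tested loci. Of the 18, 16 had a positive log2 change, where 46.9% of tested loci did, and the median was 0.43. The authors' deposited table marked 4 of the 18 significant, each higher in the cKO, beside 1.21% of the loci that the authors tested. Among the 18, Rarb, a retinoic acid receptor, was 9.33 ± 0.316 against 3.28 ± 0.965.

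The 10 ventral progenitor genes had sums of 204, 175.5 and 181 FPKM in controls 1 to 3, against 167.5 and 165 in cKO 1 and 2, with a median log2 change of 0.11. These sums rest largely on Lmo1, which was 55.9 ± 7.22 in the cKO against 93.8 ± 11.9 and is not confined to ventral progenitors. Gsx2, a homeobox factor of the lateral ganglionic eminence, was 11.3 ± 0.350 against 7.32 ± 0.546, and Olig2 was 17.6 ± 3.24 against 10.4 ± 3.39.

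The sums of hypothalamic and thalamic genes were highest in controls 1 and 3. The 12 hypothalamic genes summed to 40.03, 5.75 and 36.5 FPKM in controls 1 to 3 and to 16.3 and 12.9 in cKO 1 and 2, and Oxt was listed at 0 in every library. The 7 thalamic genes summed to 150.5, 23.5 and 46.05 in controls 1 to 3 and to 37.1 and 32.1 in the cKO. Tcf7l2, a thalamic factor, was 78.5 FPKM in control 1 and between 2.48 and 11.5 in the other libraries. Control 1 therefore carried the most RNA of these kinds and control 2 the least. Pan-neuronal genes summed to 3798, 2573 and 3107 FPKM in controls 1 to 3 and to 3522 and 2550 in cKO 1 and 2. The sums of control 2 and cKO 2 were thus nearly equal. Tubb3 alone gave 1324 FPKM in control 2 and 1101 in cKO 2, so their order rests on this gene.

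**Figure D4:**
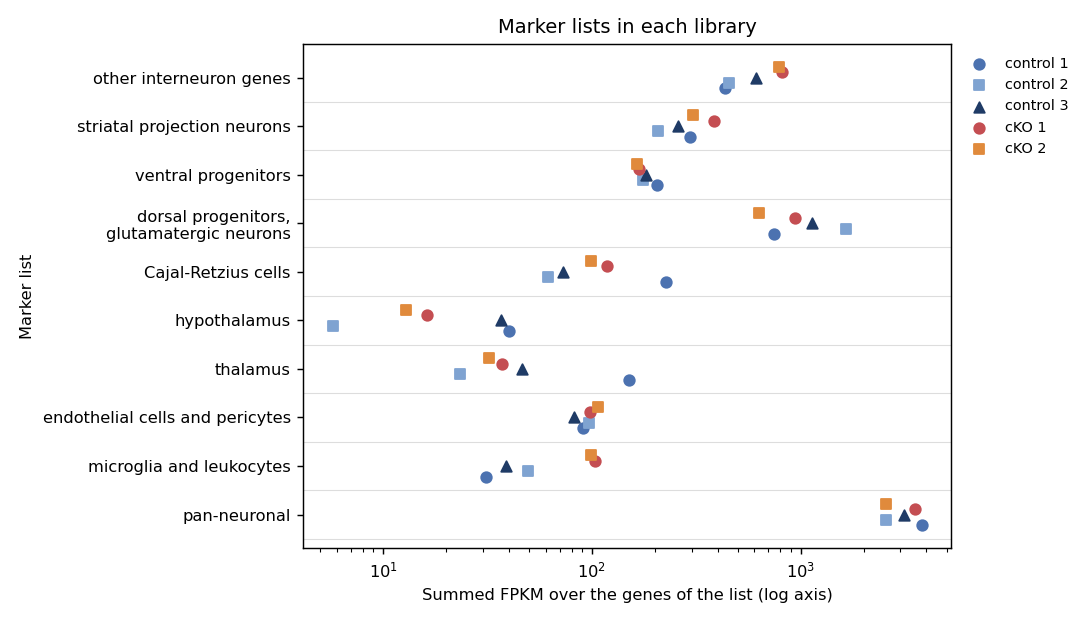
Summed FPKM of 10 marker lists (log axis), one point per library. The sums of other interneuron, striatal, microglial, and endothelial and pericyte genes are higher in both cKO libraries than in every control. Control 2 has the highest dorsal sum and the lowest hypothalamic and thalamic sums, and control 1 the highest thalamic and Cajal-Retzius sums.

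The count of members with both cKO libraries above every control was recomputed without each library. The reason was that controls 1 and 2 stood at opposite ends of several marker lists. Leaving out a library can raise such a count or leave it the same but never lower it, so the recount is no test of it. Where 1 cKO library was left, that library alone was compared with the controls. Shares are of loci averaging 1 FPKM or more in the libraries kept. Without control 1, which leaves only c/c controls, the count was 8 of 10, beside 27.8% of these loci. It was 7 of 10 without control 2 or without control 3, beside 18.2% and 15.1%. It was 8 without cKO 1 and 9 without cKO 2, beside 27.2% and 21.4%. The median log2 change of the members ranged from 0.64 without control 2 to 0.96 without control 3.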

How the data were processed

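Per the labels' protocols, total RNA of dissected cortex was sequenced from libraries built with a kit from Illumina. The build mm10 and the tools MACS, Bowtie2, Cufflinks, TopHat and CASAVA are named per the submitters' processing notes, without versions or roles. The deposited table holds FPKM per locus and library; its header names no unit, and FPKM is read from the tools and the values. Per the file headers, the authors also deposited a comparison with a p-value, a q-value, a statistic (a score) and the fold change in log2 units, printed with no error or n. The series also lists 6 ATAC-seq samples, which are not used here.

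Groups came from sample titles. The 12672 loci averaging 1 FPKM or more were transformed to log2(FPKM + 1). The groups were compared with limma 3.58.1 under R 4.3.3, using an intensity trend, 3 residual degrees of freedom and Benjamini-Hochberg adjustment over these loci, a procedure tested on simulated data. Sequencing depth is unknown, since among values under 0.05 FPKM no ratio between libraries was shared by more than 25.5% of loci and whole reads were not recovered. Alternatives were the pseudocount (0.1, 0.5), the filter (none, 5 FPKM), the scaling (median ratio, quantile), no intensity trend, a replicate block, and leaving out each library. With a library left out, tested loci are those averaging 1 FPKM or more in the libraries kept, while the genes of a list stay the same. Counts of genes above or below every control can then only rise or stay the same.

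The members, lists and tests were chosen with earlier results of these data known. Named genes are Chd8, the members and up to 4 genes per list with the smallest unadjusted p. Further genes of the ventral, striatal and dorsal lists are also named. Lhx8, Gbx1, Cxcl12, Vip, Pvalb, Ptprc, Itgam, Oxt, Ebf3, Lhx5, Met, Nos1, Maf, Calb1, Etv1, Cx3cr1 and Tubb3 were added after their values were seen. Some genes this rule selects are not reported here. Coordinates and upstream windows (250 bases before each listed start) are from RefSeq GRCm38.p6, matched by symbol for all 10 members.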

Additional observations from a re-analysis of the deposited data

How the results depend on the processing

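No member was called in limma under any of the 13 alternatives (12 for Erbb4, which is under the filter of 5 FPKM), and 8 of the 10 members kept a positive log2 change in each. The exceptions were Slc32a1, at -0.13 without control replicate 2 and -0.33 without cKO replicate 1 (range 0.47 to -0.33), and Nkx2-1, at -0.04 without control replicate 2 and -0.19 without cKO replicate 2 (range 1.90 to -0.19). Where 1 cKO library remains, it is assumed to vary like the controls. The median of the members moved by less than 0.40, the SD of the control medians, in every alternative. Over all loci 2 were called higher and 4 lower. Without a filter 1 was called lower, with a mean of at least 5 FPKM 1 was called higher, and without an intensity trend 2 were called lower. Leaving out 1 library gave 2 to 29 higher and 2 to 12 lower calls. With the replicate number as a block, 1 locus was called higher and 2 lower, and the median of the members was 0.96. Control 3 has no partner in that fit, same-numbered libraries share no stated origin, and their deviations correlated at -0.07 and -0.11. The cause of these shifts was not tested. The 2 cKO libraries limit the precision, and without counts no counting error can be given.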
